A study of Mus musculus with 6 samples.

Results

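Mitochondria in a cultured cell are joined and divided continuously by a small set of proteins. Fusion of the outer membrane is carried out by the mitofusins, membrane GTPases encoded by Mfn1 and Mfn2, and fusion of the inner membrane by OPA1, a dynamin-related GTPase that also shapes the cristae. Division is carried out by the dynamin-related protein DRP1, encoded by Dnm1l, which is recruited from the cytosol by outer membrane proteins such as MFF and FIS1. PGC-1α, encoded by Ppargc1a, is a transcriptional coactivator of mitochondrial biogenesis, and TFAM, encoded by Tfam, packages mitochondrial DNA and starts its transcription. The values below are RNA levels of these 8 genes in murine embryonic fibroblasts (MEF) that lack TIA1 or TIAR, related RNA-binding proteins that regulate splicing and translation. A gene was included when its name was the one that the array files give for a probe, and 18 of 55681 probes, for 8 of 34797 names, met this rule.

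Each of 6 arrays, of 1 colour, carried RNA from immortalized MEF. The WT MEF were wild type cells labelled as strain W4, the TIA1 KO MEF were knockout cells of strain BALB/c and the TIAR KO MEF were knockout cells of strain C57BL/6, with 2 independent replicates in each of the 3 groups and no other treatment named. Genotype, strain and cell line therefore cannot be told apart, and since the TIA1 KO arrays lay in row 2 of the slide and the other arrays in row 1, neither can slide row and loss of TIA1. Per array, the scanner software marked 23531 and 26254 probes of WT MEF as well above background, 16000 and 19920 of TIA1 KO MEF, and 24754 and 25985 of TIAR KO MEF. The TIA1 KO arrays stood apart, with median spot intensities of 458 and 218 against 119 to 152 on the others. Their negative controls read 196 and 119 against 89 to 112. The standard deviation between replicates over all probes was 0.44 in TIA1 KO, 0.27 in WT and 0.29 in TIAR KO MEF. Values are log2 signals after background correction and normalization between arrays, and differences are log2 differences ± standard error from limma with n = 2 arrays per group. Signals of different probes are not compared, since each probe has its own brightness. A probe was counted as changed at an adjusted p under 0.05 over all probes of the array. Precision is limited by having 2 arrays in a group.

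Read from the brightest probe of each gene, the results show 1 change among the 8 genes. Ppargc1a RNA, which was near background in WT MEF, was higher in TIAR KO MEF. Of all gene names 9.54% changed there, so that 1 of 8 is near the share of the whole array. TIA1 KO MEF had 0 of 8, where 4.51% of all names changed. The brightest probe of Mfn2 did not pass in either knockout, but a dimmer one, 1 of its 4 probes, was lower and past the threshold in both, a call that most alternative settings did not keep. In TIA1 KO MEF, 0 probes of the whole array passed under some of these settings. Opa1, Mfn1, Dnm1l, Fis1, Mff and Tfam did not pass the test in any comparison. The probes that carry these values are named below by the middle 30 bases of their 60-base sequence and the position that the array files give for the probe, which for Mfn2 probe 1 is shorter than the probe. The bases are written from 5′ to 3′ in the sense of the mRNA and all in lower case, so that a reader can tell which piece of each transcript was measured. Mfn2 probe 2 carries the changed call in both knockouts, Mfn2 probe 1 is the brightest of the gene, and Ppargc1a probe 1 is the only one of its gene that was above background on any array.
Mfn2 probe 1 (mm9 chr4:147247704-147247757, minus strand): taagtaaagattcatttatgccaccaggga
Mfn2 probe 2 (mm9 chr4:147248131-147248190, minus strand): cctcagtctaccctttttgctgggacagtg
Ppargc1a probe 1 (mm9 chr5:51848928-51848987, minus strand): gcatttccatgaagacacacttaaaaccta

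The knocked-out genes were read first. The brightest probe of Tia1 read 10.72 and 8.54 in WT MEF, against 7.87 and 8.44 in TIA1 KO MEF, with 9.56 and 9.58 in TIAR KO MEF. On TIA1 KO array 1 it was not well above background. The signal in TIA1 KO MEF was below both WT arrays, but the WT arrays differed by more than this, and the difference of −1.47 ± 0.79 did not pass the test (adjusted p = 0.288). Tial1, which encodes TIAR, read at its brightest probe 13.22 on WT array 2, 14.07 and 13.69 in TIA1 KO MEF, with 9.57 and 11.60 in TIAR KO MEF. Its spot on WT array 1 was marked as an outlier and dropped from the fit, and the difference in TIAR KO MEF was −2.63 ± 0.87 (adjusted p = 0.200). Whether these probes lie in the deleted part of either gene is not given in the sources used here. The brightest probe of Gapdh, a glycolytic enzyme often used as a reference, lay between 18.47 and 18.74 on the 6 arrays.

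**Figure D1:**
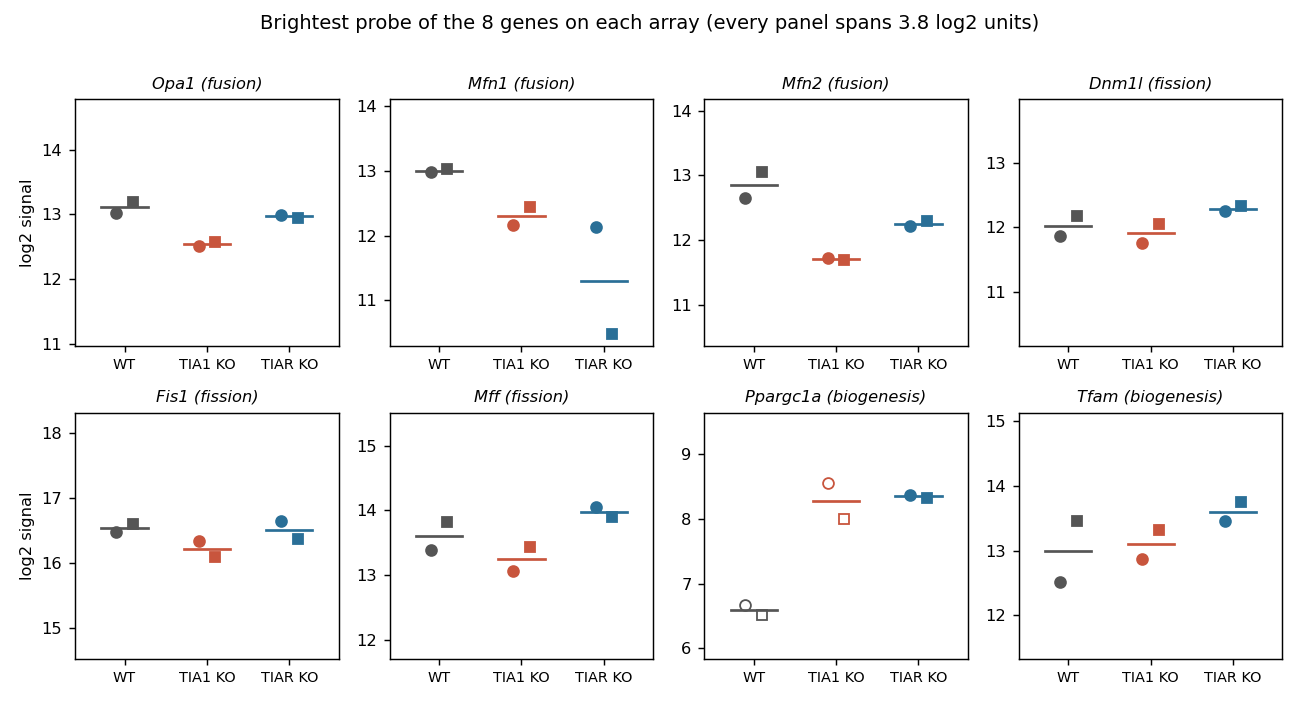
Log2 signal of the brightest probe of each of the 8 genes (vertical axis) in WT, TIA1 KO and TIAR KO MEF. Circles are replicate 1, squares replicate 2, bars the mean of 2 arrays, and open symbols mark signals that were not well above background. Mfn2 was lower and Ppargc1a higher on all knockout arrays than on both WT arrays, and Mfn1 in TIAR KO MEF lay at 12.13 and 10.47. Of all probes, 39.2% were lower and 26% higher without overlap in TIA1 KO MEF, with 27% and 21.9% in TIAR KO MEF.

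Fusion genes were compared first. Mfn2 probe 2, the one that passed, read 12.42 and 12.48 in WT MEF, against 11.19 and 11.32 in TIA1 KO MEF, with 11.74 and 11.77 in TIAR KO MEF. Replicates lay close together, the groups did not overlap, and TIA1 KO MEF had the lowest signal. Mfn2 RNA at this probe fell by 1.19 ± 0.15 in TIA1 KO MEF, 2.29-fold (adjusted p = 0.0416), and by 0.70 ± 0.14 in TIAR KO MEF, 1.62-fold (adjusted p = 0.0461). The difference between TIAR KO and TIA1 KO MEF, 0.50 ± 0.16, did not pass the test (adjusted p = 0.179, 95% interval 0.08 to 0.92).

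The other Mfn2 probes lay on the same side but did not pass. Probe 1 read 12.65 and 13.06 in WT MEF, against 11.72 and 11.69 in TIA1 KO MEF, with 12.21 and 12.30 in TIAR KO MEF. Its differences were −1.15 ± 0.20 (adjusted p = 0.0731) and −0.60 ± 0.19 (adjusted p = 0.152). Probe 3 (chr4:147248019-147248078) read 10.69 and 11.35 in WT MEF, against 10.21 and 10.12 in TIA1 KO MEF, while the TIAR KO arrays at 9.57 and 10.77 overlapped WT MEF. Probe 4, at chr4:147255665-147255724 and the farthest from the other probes, was dim. It read 8.18 and 8.13 in WT MEF, was not well above background on either TIA1 KO array, so that no difference is given there, and gave −0.12 ± 0.14 in TIAR KO MEF. The signals of all 3 brighter Mfn2 probes lay below both WT arrays in TIA1 KO MEF, as did 39.2% of all probes.

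Both calls at probe 2 lay close to the threshold. Of 15 alternative settings each, 6 kept the call for TIA1 KO MEF and 3 kept it for TIAR KO MEF. It was lost in TIA1 KO MEF without WT replicate 1 (−1.22), WT replicate 2 (−1.17) or TIA1 KO replicate 1 (−1.13). In TIAR KO MEF it was lost without any 1 of the 4 arrays (−0.72 to −0.67). In TIA1 KO MEF 0 probes of the whole array passed without either WT array or with the processed signal of the scanner software. The call could not be kept under those settings, so that its loss there says nothing of Mfn2. The difference was negative under each of the 15 settings in both knockouts.

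**Figure D2:**
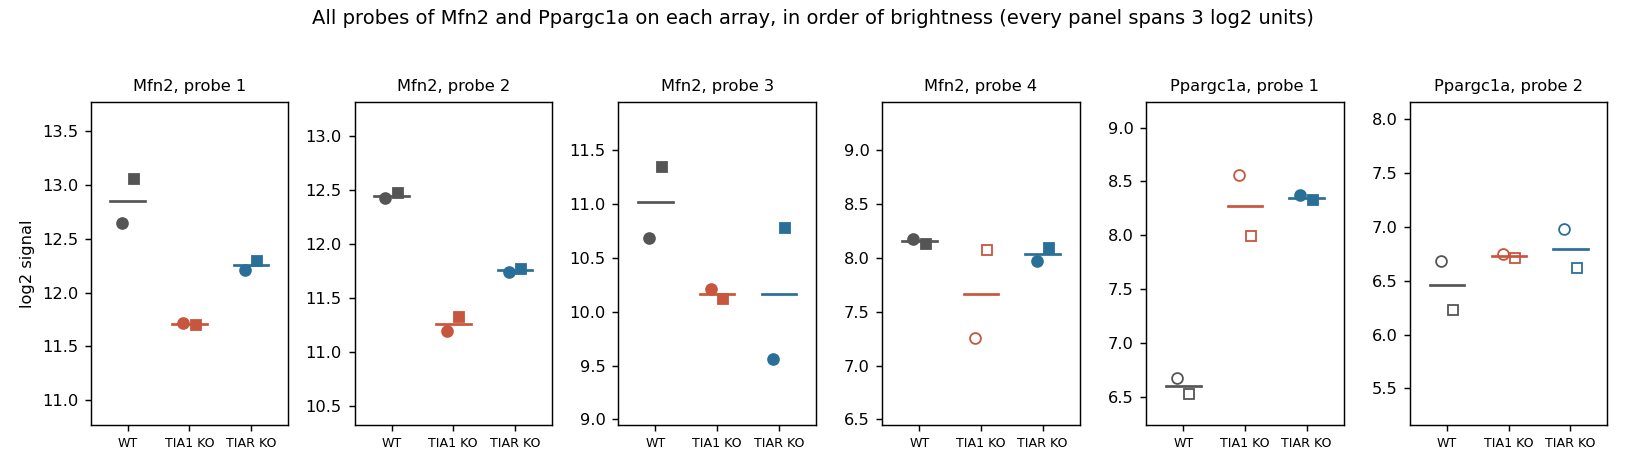
Log2 signal (vertical axis) of the 4 Mfn2 probes and the 2 Ppargc1a probes in WT, TIA1 KO and TIAR KO MEF, with circles for replicate 1, squares for replicate 2, bars for the mean of 2 arrays and open symbols for signals not well above background. Mfn2 probes 1 and 2 separated the 3 groups, probe 3 overlapped between WT and TIAR KO MEF, and the second Ppargc1a probe was near background on all 6 arrays.

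Mfn1, the other mitofusin, did not pass in either knockout. Its brightest probe (chr3:32476215-32476274) read 12.97 and 13.03 in WT MEF, against 12.16 and 12.44 in TIA1 KO MEF, with 12.13 and 10.47 in TIAR KO MEF. Both knockouts lay below WT MEF, and TIAR KO array 2 stood apart from all others. The differences were −0.71 ± 0.18 (adjusted p = 0.111) and −1.70 ± 0.53 (adjusted p = 0.146). The latter depended on which array was left in. It was −0.87 (adjusted p = 0.1001) without TIAR KO replicate 2 and −2.53 (adjusted p = 0.0113) without TIAR KO replicate 1, where 1 TIAR KO array remained and the spread came from WT MEF. The second Mfn1 probe (chr3:32476420-32476479) did not show the low value of that array, which read 11.46 against 12.10 and 11.40 in WT MEF.

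Opa1 was read by 2 probes. The brighter one (chr16:29651875-29651934) read 13.02 and 13.19 in WT MEF, against 12.52 and 12.57 in TIA1 KO MEF, with 13.00 and 12.94 in TIAR KO MEF. Signals in TIA1 KO MEF were the lowest, with a difference of −0.56 ± 0.16 that did not pass the test (adjusted p = 0.128), while TIAR KO MEF gave −0.14 ± 0.15. The second probe (chr16:29654447-29654506) overlapped between WT and either knockout. The files hold no probe that tells the long and short forms of OPA1 apart, since these arise by cleavage of the protein.

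Fission genes were compared next, and no probe of Dnm1l, Fis1 or Mff passed the test. Dnm1l had 1 probe (chr16:16312331-16312390), which read 11.87 and 12.18 in WT MEF, against 11.77 and 12.06 in TIA1 KO MEF, with 12.25 and 12.33 in TIAR KO MEF. TIA1 KO and WT MEF overlapped, and the differences from WT MEF were −0.11 ± 0.21 (95% interval −0.67 to 0.44) and 0.26 ± 0.17 (95% interval −0.16 to 0.69). Fis1 read 16.47 and 16.60 in WT MEF, against 16.33 and 16.09 in TIA1 KO MEF, with 16.64 and 16.37 in TIAR KO MEF for its brightest probe (chr5:137442023-137442082). The differences were −0.32 ± 0.17 and −0.03 ± 0.17, with 95% intervals of −0.80 to 0.15 and −0.45 to 0.39. The second Fis1 probe (chr5:137429355-137429414) gave −0.03 ± 0.23 and −0.34 ± 0.19, and was well above background on 1 of 2 TIA1 KO arrays.

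Mff was measured by 2 probes that overlap by 51 bases and differ at 3 of them, and these probes did not give the same picture. The stretch that holds the differences (mm9 chr1:82748743-82748772, plus strand) is shown because both probes carry the name Mff, with the differing bases in capitals. Counted from 1 at the 5′ end of the printed stretch, the substitutions from the brighter to the dimmer probe were G4A, G15C and G27A.
Mff brighter probe: tgtGcaggactgaaGtcaaaccacctGact
Mff dimmer probe: tgtAcaggactgaaCtcaaaccacctAact

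The brighter Mff probe read 13.39 and 13.82 in WT MEF, against 13.06 and 13.43 in TIA1 KO MEF, with 14.05 and 13.90 in TIAR KO MEF. The dimmer one read 12.37 and 13.15, then 12.93 and 13.07, and then 13.01 and 12.22. The brighter probe was highest in TIAR KO MEF and the dimmer one in TIA1 KO MEF, each by less than the test could call. Differences from WT MEF were −0.36 ± 0.24 and 0.37 ± 0.20 for the brighter probe, and 0.24 ± 0.31 and −0.15 ± 0.37 for the dimmer one. Between the knockouts the brighter probe differed by 0.73 ± 0.20 (adjusted p = 0.150) and the dimmer one by −0.39 ± 0.31 (adjusted p = 0.479). Which of these sequences the 3 strains carry was not tested.

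Genes of biogenesis followed. The brighter Ppargc1a probe read 6.67 and 6.52 in WT MEF, against 8.56 and 7.99 in TIA1 KO MEF, with 8.37 and 8.32 in TIAR KO MEF. Both knockouts lay above WT MEF without overlap, but the probe was well above background only on the TIAR KO arrays. In TIAR KO MEF Ppargc1a RNA rose (limma, adjusted p = 0.00283). Its signal was 2.75-fold above a floor set for each WT array. The floor is the higher of the probe's own signal and the lowest signal rated well above background on that array. It is not a detection limit, since Pld6 at 7.51 and 7.37 on the WT arrays was not well above background. A minimum size of the rise is therefore not given. In TIA1 KO MEF the test was not passed (limma, adjusted p = 0.0528), and no fold is given, since neither group was well above background. The call in TIAR KO MEF was kept under 14 of 15 alternative settings. TIAR KO and TIA1 KO MEF are not set against each other here, since the probe was not well above background in TIA1 KO MEF.

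The second Ppargc1a probe (chr5:51846926-51846985) was not well above background on any of the 6 arrays and lay between 6.23 and 6.98. The rise was therefore seen by 1 of 2 probes. Tfam was read by 3 probes, and none passed the test. Its brightest probe (chr10:70691103-70691162) read 12.52 and 13.46 in WT MEF, against 12.88 and 13.32 in TIA1 KO MEF, with 13.45 and 13.75 in TIAR KO MEF. The WT arrays differed by more than the groups did, and the differences were 0.11 ± 0.39 and 0.61 ± 0.33. The other Tfam probes (chr10:70691260-70691319 and chr10:70688866-70688925) gave −0.16 ± 0.31 and −0.09 ± 0.26 in TIA1 KO MEF, with −0.21 ± 0.49 and 0.09 ± 0.18 in TIAR KO MEF.

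Counted by the brightest probe of each gene, 0 of the 8 genes changed in TIA1 KO MEF, where 4.51% of all gene names did, and 1 of 8 (Ppargc1a, higher) in TIAR KO MEF, where 9.54% did. Between the knockouts 0 of 8 differed, against 4.18% of all names. An unadjusted p under 0.05 in limma was reached by 4, 3 and 3 of the 8 genes, where 29.2%, 23.1% and 24.7% of all names reached it. Counted by probe, 1 of 18 changed in TIA1 KO MEF, a lower one, where 3.54% of all probes changed, 1.36% lower and 2.18% higher. In TIAR KO MEF 2 of 18 changed, 1 lower and 1 higher, where 7.79% of all probes changed, 3.44% lower and 4.35% higher. Between the knockouts 0 of 18 differed by limma, where 3.35% of all probes did, 1.72% higher and 1.63% lower in TIAR KO MEF. An unadjusted p under 0.05 was reached by 6, 4 and 4 of the 18 probes, and by 27.8%, 20.2% and 22.6% of all probes. The 2 comparisons share the WT arrays, so that the low Mfn2 values in both are not independent of each other.

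Groups that did not overlap were counted in the same way. In TIA1 KO MEF 8 of 18 probes lay below both WT arrays, where 39.2% of all probes did, and 2 lay above, where 26% did. The 2 above were the Ppargc1a probes, not well above background on any WT or TIA1 KO array. Among the 8 below, Mfn2 probe 4 was not well above background in TIA1 KO MEF. In TIAR KO MEF 6 lay below and 3 above, against 27% and 21.9% of all probes. Between the knockouts 8 of the 18 probes were higher in TIAR KO MEF without overlap and 2 lower, where 34.9% and 25% of all probes were. The median difference of the 18 probes was −0.26 in TIA1 KO MEF, with −0.13 in TIAR KO MEF, beside −0.09 and −0.02 over all probes. Over the brightest probe of each of the 8 genes, where Mfn2 counts once, it was −0.34 and 0.12, beside −0.07 and −0.01 over all names, so that its sign in TIAR KO MEF depends on how probes are counted. These shares and medians are a description of few probes, some of which share a gene.

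**Figure D3:**
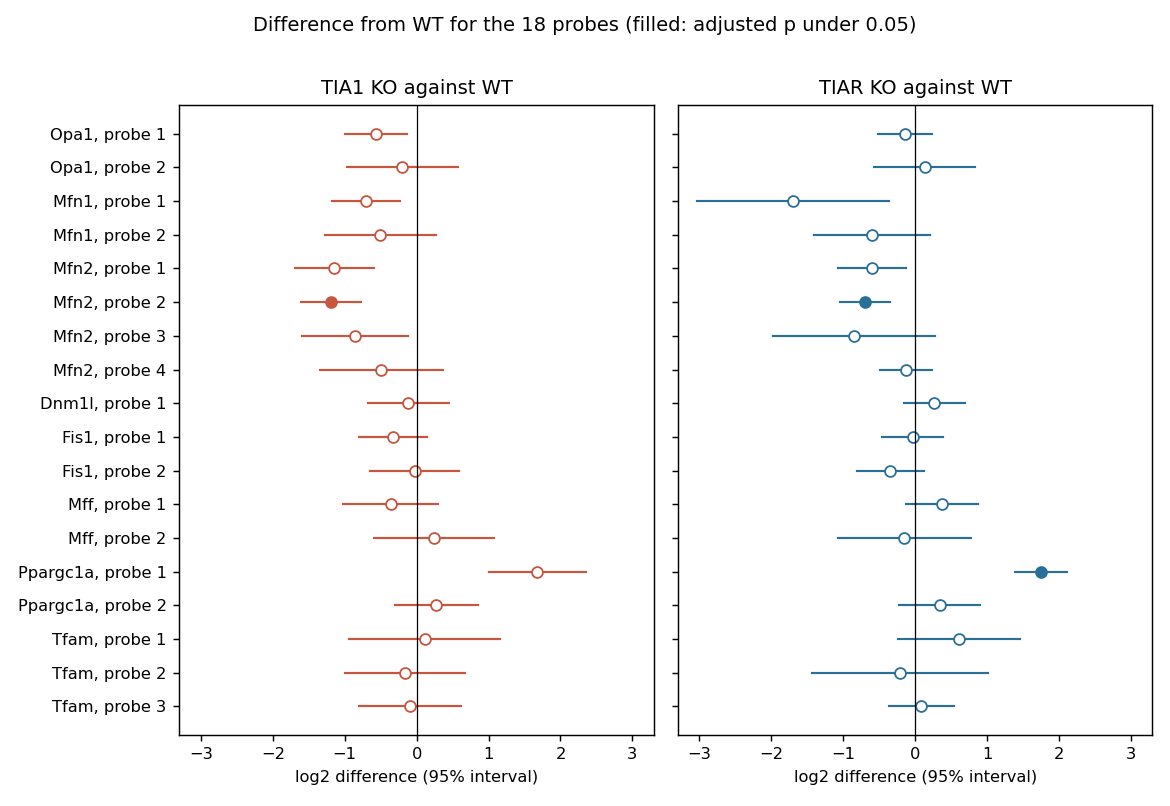
Log2 difference from WT MEF (horizontal axis) for each of the 18 probes in TIA1 KO MEF (left) and TIAR KO MEF (right), with 95% intervals from limma; filled points passed an adjusted p under 0.05. All 4 Mfn2 probes were plotted below 0 in both knockouts, the filled one at −1.19 and −0.70 and the dimmest, in TIA1 KO MEF, without a signal well above background, and Ppargc1a probe 1 lay above 0 in both, measured against WT signals not well above background.

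The windows around the start sites of the 8 genes, 250 bases before to 50 after each start in RefSeq on GRCm38.p6, were searched for letters bound by factors known for nuclear genes of mitochondria. All 8 genes had at least 1 window, 13 in all. GCGCATGC, the core of the NRF-1 site, was found on either strand in 1 window, that of Opa1, and in 2.71% of all 32851 windows. CCGGAAG, the core of sites of ETS factors such as GABP, was found in 5 windows of 4 genes (Dnm1l, Fis1, Mfn1 and Tfam) and in 8.86% of all windows. AAGATGGCG, the core of the YY1 site, was found in 0 of the 13 and in 1.4% of all. Neither Mfn2 nor Ppargc1a held one of these 3 strings in its windows, and a match is a description of letters only. The stretches of 30 bases around the matches that lie upstream of a start site are shown, with the match in capitals, so that the surrounding bases can be compared. The first line holds the NRF-1 core and the others the ETS core. In Opa1 only the match on the printed strand is in capitals, and an overlapping match on the other strand, which starts 2 bases further on, is left in lower case beyond it.
Opa1 (GRCm38.p6 chr16:29579264-29579293, plus strand): agtggctccccGCGCATGCgcatgtcatcc
Mfn1 (GRCm38.p6 chr3:32529426-32529455, plus strand): agatccgaagcgCCGGAAGtagccgcccct
Fis1 (GRCm38.p6 chr5:136953245-136953274, plus strand): aggaggcaccacCCGGAAGttcaggcttcc
Tfam (GRCm38.p6 chr10:71238074-71238103, minus strand): tcctgccgcggaCCGGAAGtccgggcttcc

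Other genes of the same processes were read from 7 lists of 90 genes, of which 88 had a probe. In TIA1 KO MEF 1 of 88 rose and 3 fell, and in TIAR KO MEF 4 rose and 11 fell, against 2.88% higher and 1.63% lower, and 5.52% higher and 4.01% lower, over all names. The median difference was −0.23 in TIA1 KO MEF, with −0.28 in TIAR KO MEF, beside −0.07 and −0.01 over the brightest probes of all names, and −0.26 and −0.05 over all probes, not only the brightest of a name, that both arrays of a group read well above background. Between the knockouts 4 of 88 were higher and 2 lower in TIAR KO MEF, against 2.06% and 2.12% of all names. The calls were recounted without each array in turn and with the replicate number as a block. Where 0 probes of the whole array pass, a lost call does not show that a gene rests on 1 array. Without either WT array 0 probes of the whole array passed in TIA1 KO MEF, and without either TIAR KO array, or with the replicate number as a block, 0 passed between the knockouts, so that every call given below for these 2 comparisons was lost there. With 1 array left out, 0 to 14 of the 88 genes changed in TIA1 KO MEF, 6 to 11 changed in TIAR KO MEF and 0 to 23 differed between the knockouts.

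Among 15 regulators of biogenesis, 1 rose and 1 fell in TIA1 KO MEF, and 1 rose and 2 fell in TIAR KO MEF. Pparg, a nuclear receptor that works with PGC-1α and drives fat cell differentiation, read 8.15 and 8.30 in WT MEF, against 12.27 and 12.43 in TIA1 KO MEF, with 10.19 and 10.50 in TIAR KO MEF. The 3 groups were far apart relative to their replicates, with rises of 4.13 ± 0.16 (17.5-fold, adjusted p = 0.00485) and 2.12 ± 0.17 (4.35-fold, adjusted p = 0.00272). Pparg was 4.01-fold lower in TIAR KO than in TIA1 KO MEF (adjusted p = 0.0235). Prkaa2, a catalytic subunit of the energy sensor AMPK, read 9.17 and 9.30 in WT MEF, against 6.92 and 7.59 in TIA1 KO MEF, with 8.12 and 7.86 in TIAR KO MEF. It fell in TIA1 KO MEF (limma, adjusted p = 0.0473) and fell 2.38-fold in TIAR KO MEF (−1.25 ± 0.16, adjusted p = 0.013). In TIA1 KO MEF Prkaa2 was not well above background and no fold is given. On TIA1 KO array 1 even Trak2, at 10.19, was not well above background. Prkaa1, the other catalytic subunit, fell in TIAR KO MEF (−0.98 ± 0.14, adjusted p = 0.0179) and gave −0.04 ± 0.16 in TIA1 KO MEF.

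Of 12 accessory genes of fission, 1 fell in TIA1 KO and 2 fell in TIAR KO MEF. Mtfr2, a fission regulator, read 15.29 and 15.49 in WT MEF, against 14.04 and 14.19 in TIA1 KO MEF, a fall of 1.28 ± 0.17 (adjusted p = 0.0432), while the TIAR KO arrays at 15.25 and 15.36 overlapped WT MEF. It was higher in TIAR KO than in TIA1 KO MEF by 1.19 ± 0.16 (adjusted p = 0.0458). Mtfp1, an inner membrane protein of fission, read 11.93 and 11.68 in WT MEF, against 11.26 and 11.53 in TIA1 KO MEF, with 10.20 and 10.20 in TIAR KO MEF. It fell by 1.61 ± 0.16 in TIAR KO MEF (3.05-fold, adjusted p = 0.00478), where Spire1, which nucleates actin at fission sites, fell by 1.41 ± 0.14 (adjusted p = 0.00517).

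Of 15 genes of fusion and cristae, 0 changed in TIA1 KO MEF by limma (4 had an unadjusted p under 0.05), and in TIAR KO MEF 1 rose and 2 fell. Slc25a46, an outer membrane protein linked to fusion and cristae, read 12.98 and 13.05 in WT MEF, against 12.13 and 11.72 in TIA1 KO MEF, with 11.93 and 12.06 in TIAR KO MEF, a fall of 1.02 ± 0.14 in TIAR KO MEF (adjusted p = 0.0165) and −1.09 ± 0.20 in TIA1 KO MEF (adjusted p = 0.0789). Stoml2, an inner membrane scaffold, fell by 0.80 ± 0.15 in TIAR KO MEF (adjusted p = 0.0368), and Apool, a cristae junction protein, rose by 0.90 ± 0.14 (adjusted p = 0.0227). The prohibitin subunit Phb2 did not pass, with −0.47 ± 0.18 in TIA1 KO MEF against −0.63 ± 0.24 in TIAR KO MEF.

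Among 7 genes of mitochondrial transport, 0 changed in TIA1 KO MEF by limma (4 had an unadjusted p under 0.05) and 2 fell in TIAR KO MEF. Armcx3, an outer membrane protein that links mitochondria to motor adaptors, read 11.74 and 11.79 in WT MEF, against 11.84 and 12.01 in TIA1 KO MEF, with 9.52 and 9.32 in TIAR KO MEF. It fell by 2.34 ± 0.15 in TIAR KO MEF (5.07-fold, adjusted p = 0.00127), and Trak1, a motor adaptor, by 2.18 ± 0.26 (4.52-fold, adjusted p = 0.00902). Between the knockouts, Armcx3 was 5.68-fold lower in TIAR KO MEF (adjusted p = 0.0125). Rhot2, a mitochondrial GTPase of the same machinery, was 2.80-fold higher in TIAR KO than in TIA1 KO MEF (adjusted p = 0.0308), with 12.38 and 12.46 against 11.02 and 10.86.

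Of 11 genes of mitophagy and mitochondrial ubiquitin ligation, 0 changed in TIA1 KO MEF by limma (6 had an unadjusted p under 0.05) and 1 fell in TIAR KO MEF. Bnip3, a mitophagy receptor, read 14.12 and 14.35 in WT MEF, against 13.18 and 13.24 in TIA1 KO MEF, with 12.86 and 13.11 in TIAR KO MEF, a fall of 1.25 ± 0.17 in TIAR KO MEF (adjusted p = 0.0145) and −1.02 ± 0.17 in TIA1 KO MEF (adjusted p = 0.0616). Pink1, the kinase that marks damaged mitochondria, read 9.76 and 10.72 in WT MEF, against 8.83 and 9.28 in TIA1 KO MEF, with 10.94 and 11.25 in TIAR KO MEF. Neither knockout differed from WT MEF by the test, but TIAR KO exceeded TIA1 KO MEF (adjusted p = 0.0354), where Pink1 was well above background on 1 of 2 arrays. Vcp, an ATPase that extracts ubiquitinated proteins, and Fkbp8, an outer membrane receptor, did not pass in either knockout.

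**Figure D4:**
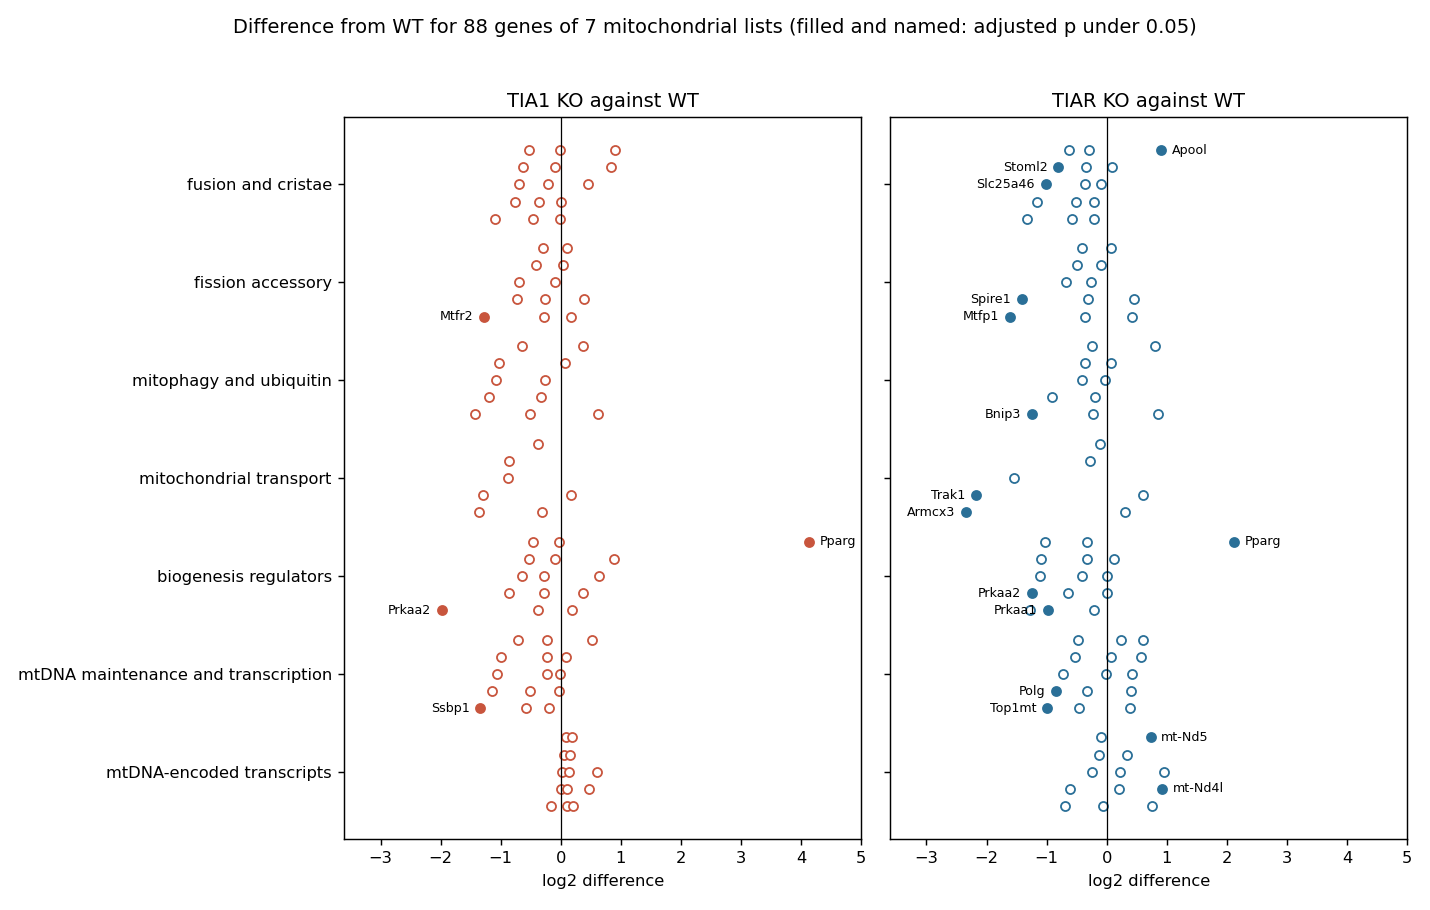
Log2 difference from WT MEF (horizontal axis) of the brightest probe of 88 genes in 7 lists for TIA1 KO MEF (left) and TIAR KO MEF (right); filled, named points passed an adjusted p under 0.05, and the height within a list carries no meaning. Pparg lay at 4.13 and 2.12, and the transcripts encoded by mitochondrial DNA lay between −0.16 and 0.60 in TIA1 KO MEF.

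Of 15 genes that maintain and transcribe mitochondrial DNA, 1 fell in TIA1 KO MEF and 2 fell in TIAR KO MEF. Ssbp1, the single-strand binding protein of mitochondrial DNA, read 14.79 and 14.65 in WT MEF, against 13.48 and 13.28 in TIA1 KO MEF, with 13.63 and 14.37 in TIAR KO MEF, a fall of 1.34 ± 0.17 in TIA1 KO MEF (2.53-fold, adjusted p = 0.0395). In TIAR KO MEF Polg, the mitochondrial DNA polymerase, fell by 0.84 ± 0.16 (adjusted p = 0.0439), and Top1mt, the mitochondrial topoisomerase, by 0.99 ± 0.20 (adjusted p = 0.0482). Dguok, a kinase that supplies deoxynucleotides, was 2.95-fold higher in TIAR KO than in TIA1 KO MEF (adjusted p = 0.0403). Transcripts of mitochondrial DNA itself were measured for 13 of 15 genes. By limma 0 changed in TIA1 KO MEF (1 had an unadjusted p under 0.05), and in TIAR KO MEF mt-Nd4l and mt-Nd5, subunits of complex I, rose by 0.92 ± 0.18 (adjusted p = 0.0451) and 0.73 ± 0.14 (adjusted p = 0.0404). The other 11 did not pass, and over all 13 the differences in TIAR KO MEF ran from −0.70 to 0.96. mt-Co1, a subunit of complex IV, lay between 18.41 and 18.74 on the 6 arrays. The probe named for mt-Nd3 is placed by the files on chromosome 1, and nuclear copies of mitochondrial DNA could share signal with any of these probes.

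Genes whose pattern over the 6 arrays was most like a changed member were found among 9056 named genes whose brightest probe was well above background on every array. Each gene was centred on its own mean, and likeness was the root mean square difference. For Mfn2 probe 2 these were Mapkapk5 (0.034), Aprt (0.054) and Pkp4 (0.060), and for Ppargc1a probe 1 Ifi47 (0.093), Acpl2 (0.115) and Tmed3 (0.134), the latter among 9057 genes. The likeness to Ppargc1a rests on 4 arrays where its probe was not well above background. Mapkapk5 read 14.64 and 14.65 in WT MEF, against 13.42 and 13.50 in TIA1 KO MEF, with 13.90 and 14.02 in TIAR KO MEF.

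Markers of cell type were read beside these genes. Of 10 fibroblast markers, 7 rose in TIA1 KO MEF and 8 rose in TIAR KO MEF, and their summed signal was 19.03 and 19.11 on the log2 scale in WT MEF, against 20.33 and 20.30 in TIA1 KO MEF, with 20.41 and 20.44 in TIAR KO MEF. These sums run over the same probes and compare arrays only. S100a4, one of the markers, read between 17.69 and 18.36 on all 6 arrays. In WT MEF Pdgfra was not well above background, Thy1 and Dcn were so on 1 of 2 arrays, and Col3a1 read 9.52 and 9.08 against 15.59 and 15.65 in TIA1 KO MEF, with 15.16 and 16.65 in TIAR KO MEF. Of other cell types, 0 of 4 macrophage and 0 of 3 endothelial markers changed in either knockout by limma (1 and 0 had an unadjusted p under 0.05 in each), with Ptprc and Cdh5 not well above background on any array. Epithelial markers rose in 1 of 4 cases in TIA1 KO MEF (Krt8) and 3 of 4 in TIAR KO MEF (Krt8, Krt18 and Cdh1), with Epcam not well above background except on TIA1 KO array 2, and muscle markers in 1 of 4 (Acta1) and 2 of 4 (Acta1 and Des), with Myod1 and Myog not well above background on any array. These differences moved with the same groups as Mfn2 and Ppargc1a, and their part in those results was not tested. From TIA1 KO to TIAR KO MEF, 3 fibroblast, 2 epithelial, 1 macrophage and 1 muscle marker were higher and 0 lower, where 2.06% of all names were higher. Thy1 read 14.84 and 14.74 in TIAR KO MEF and was not well above background in TIA1 KO MEF. Dcn read 15.67 and 15.82 against 9.24 and 9.29, and was well above background on 1 of 2 TIA1 KO arrays. Their part in the calls between the knockouts was not tested.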

How the data were processed

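Total RNA of the 6 samples was labelled with Cy3 and hybridized to 1 slide of mouse arrays, with 2 arrays in each of 3 groups taken from the labels. The replicates are independent per the labels and biological per the study, but neither names separate cultures, animals or cell lines, so that p-values measure the spread between these samples. The deposited scanner files hold spot intensities written by Agilent Feature Extraction 10.7.3.1, with no normalization beyond the scanner software. A deposited table holds log2 values that the authors normalized, and it was used as an alternative.

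Mean spot intensities were corrected with the local background (normexp, offset 50), put on the log2 scale, fitted to the mean array by loess (1 pass) and quantile normalized in limma 3.58.1 under R 4.3.3 with the data.table package (version 1.17.8). The study names normexp, log2, loess and quantiles, and the reference array and number of passes were chosen here. It also names a global normalization by the average signal of an array, which was not run as such. Control spots and outlier spots were left out, and spots of a probe were averaged. Each pair of groups was fitted apart from the third group, with lmFit and eBayes of limma, with Benjamini-Hochberg adjustment over all probes. A gene was read from its brightest probe, and every probe of the 8 genes was also given. A probe counted as well above background when the scanner software marked at least 50% of its kept spots so. The fold of Ppargc1a in TIAR KO MEF was taken over a floor, since WT MEF was below background. For each WT array the floor is the higher of the probe's own signal and the lowest signal rated above background. Other probes with higher signals were not rated above background, so that this fold is not a lower bound. Scripts were tested on simulated data. Figures were drawn in Python 3.11.15 with matplotlib 3.10.9.

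From each list and comparison the text names up to 4 genes with the largest difference among those that changed and were well above background in the higher group, or, where none changed, those with the highest signal, an order used for naming only. It also names Tia1, Tial1, Gapdh and, for each changed member, the 3 genes most alike. Genes were named from the array files, whose positions are on mm9. No annotation of that build was used, so exons and UTRs are not given. The 8 genes, the lists and the tests were chosen with earlier results of these data known. Alternatives covered background correction, scaling, filters, the fit, the replicate number as a block and leaving out each array.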

Additional observations from a re-analysis of the deposited data

How the results depend on the processing

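The 27 log2 differences of brightest or changed probes were recomputed under up to 15 alternatives each. In 342 cases the direction and the side of the threshold were kept, in 25 the threshold was newly passed, in 22 it was lost and in 15 the sign turned. The rise of Ppargc1a in TIAR KO MEF passed in 14 of 15 alternatives and was lost in a test against a fold of 2 (adjusted p = 0.0751). In TIA1 KO MEF Ppargc1a passed in 5 of 14, although neither group was well above background. Where leaving out an array leaves 1 in a group, the spread comes from the other group alone. The causes were not tested.

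Of the 8 genes, 0 changed in TIA1 KO MEF, but 1 did with a normexp offset of 16, 1 with only probes well above background, 1 with an intensity trend, 2 with all 3 groups fitted together and 8 with scaling to a common array median, where 3.02%, 13.8%, 5.03%, 10.0% and 33.1% of all probes changed, beside 3.54%. By probe, 1 of 18 changed there. The count was 0 with the processed signal scaled to the 75th percentile (0% of all probes) and without loess (2.71%). It was also 0 with the authors' log2 table (2.32%) or in a test against a fold of 2 (0.79%). It was 2 with only probes above background or with a trend, 3 in the joint fit and 16 with the common median. In TIAR KO MEF the count of 1 gene and that of 2 probes were 0 in the test against a fold of 2. Of all probes 1.82% changed in that test, beside 7.79% as first fitted. The probe count was 1 with the processed signal (4.54%), the offset of 16 (6.57%) or no loess (7.69%). It was also 1 with the authors' table (7.2%), the joint fit (5.36%) or the trend (6.42%). Between the knockouts, 0 genes and 0 probes became 6 and 13 with the common median, where 27.6% of all probes changed, beside 3.35%. Leaving out 1 array gave 0 to 3 genes and 0 to 5 probes in TIA1 KO MEF, 1 to 2 genes and 1 to 2 probes in TIAR KO MEF, and 0 to 1 genes and 0 to 2 probes between the knockouts. The highest counts came without TIA1 KO replicate 2 in the first and last of these, where 24.7% and 23.8% of all probes changed, and without TIAR KO replicate 1 in the other (4.62%). Without either WT array 0% of all probes changed in TIA1 KO MEF.

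The sign turned as follows. In TIA1 KO MEF Dnm1l was 0.038 without WT replicate 2 and 0.033 without TIA1 KO replicate 1 (range −0.27 to 0.038 over arrays left out), and Tfam was −0.21 with the processed signal, −2.43 with the common median, −0.36 without WT replicate 1 and −0.11 without TIA1 KO replicate 2 (range −0.36 to 0.58). In TIAR KO MEF Dnm1l was −0.24 with the common median, Fis1 was 0.034 without WT replicate 2 and 0.11 without TIAR KO replicate 2 (range −0.17 to 0.11), and Mff was −0.16 with the processed signal and −0.13 with the common median. Between the knockouts Mfn1, which differed by −0.99 ± 0.59 as first fitted, was 0.80 with the common median, and the signal of Ppargc1a, which measures no size here since TIA1 KO MEF was not well above background, differed by −0.15 without loess, −0.20 with the authors' table and −0.21 without TIA1 KO replicate 2, the lowest over arrays left out, where the highest was 0.36. The common median moved the median of all probes to −0.60, −0.04 and 0.57 in the 3 comparisons, and the share of higher among changed probes from 61.6%, 55.8% and 51.3% to 7.65%, 31.5% and 93.7%. The processed signal moved the median to 1.98, −0.04 and −1.85.

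With the replicate block, 0 of 18 probes changed in TIA1 KO MEF (1.21% of all probes) and 1 changed in TIAR KO MEF (6.8%). Between the knockouts 0 of 18 changed, as did 0% of all probes, so that this count could not move. Deviations of arrays with the same number correlated at 0.078 between WT and TIA1 KO MEF, 0.030 between WT and TIAR KO MEF and −0.073 between the knockouts, so that the samples share only a number. Over the 88 genes of the lists, the counts of 4, 15 and 6 changed genes in the 3 comparisons became 79, 22 and 58 with the common median, 0, 4 and 1 with the processed signal, 1, 10 and 3 with the authors' table, and 1, 14 and 0 with the block. Each group held 2 arrays, and fewer probes were above background on the TIA1 KO arrays. How small a difference could be detected was not tested.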
